A study of Mus musculus with 6 samples.

Results

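The 51 genes described here act in mitosis and in the G2 phase that precedes it, and were taken by symbol from the 32285 genes of the deposited count matrices. Each symbol matched 1 gene. All 51 stand in the G2M list of 54 genes that the Seurat package uses to call cell cycle phase, so the phase calls deposited with these cells rest on genes of this kind. The rule names genes by function and uses no measured value, but the set was proposed with earlier results of these data known.

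The data are single-cell RNA counts of sorted bone marrow cells that lacked lineage markers and carried cKit and Sca1 (LSK cells), which hold the blood stem cells and multipotent progenitors. Recipients were female C57BL/6J (CD45.1) mice of 8 to 12 weeks that received no conditioning. AML mice were injected intravenously with 1000000 C1498 cells, a murine acute myeloid leukemia line carrying the CD45.2 allele, and PBS mice with vehicle, and both were sacrificed at day 21. CD45.1+ cells were sorted, so that the profiled cells were host cells, in 3 PBS and 3 AML libraries. The labels do not say whether a library came from 1 mouse or from several, so the p-values below measure the spread between these libraries.

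Entry into mitosis is driven by the kinase CDK1 bound to a B-type cyclin. Aurora kinases, the chromosomal passenger complex and the kinetochore then attach chromosomes to the spindle, and the anaphase promoting complex ends mitosis by marking cyclins and securin for destruction. Transcripts of these proteins accumulate in G2 and fall again in G1, through the DREAM and MuvB complexes with B-MYB and FOXM1, which act at CHR elements and CCAAT boxes in the promoters. In LSK cells most long-term stem cells are in G0 while multipotent progenitors divide more often, and transcripts of this kind follow the share of cycling cells.

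The deposited cell table gives a class to each cell, called by the authors from module scores: hematopoietic stem cells (HSC) and the multipotent progenitors MPP2, MPP3 and MPP4. It also gives a cluster numbered from 0 to 8 and a phase. It holds 16822 of 48510 barcodes and none of AML replicate 2, which left 3 PBS and 2 AML libraries. AML replicate 1 stood apart. Its 693 table cells were 7.89% of its barcodes, against 70.6% to 74.4% in the other 4 libraries, and their median was 2393 UMIs (counted molecules) per cell against 4015 to 9586. No table cell of that library had under 2001 UMIs. The AML comparisons over all LSK cells and by class are therefore also given without it, those within a class as medians and counts and not gene by gene. Of the HSC class it held 23 cells, against 223 to 1401 in the other libraries. Pairs of libraries shared at most 12 cell barcodes within the table. LSK surface genes summed to 742 to 954 CPM (counts per 1000000 UMIs). Of markers of mature cells, those of neutrophils summed to 4.04 to 18.7 CPM, of erythroid cells to 52.9 to 502 CPM with the lowest in AML replicate 1, of T and NK cells to 168 to 199.7 CPM, most of it Nkg7, of monocytes and macrophages to 85.3 to 148 CPM, of mast cells and basophils to 16.4 to 35.5 CPM, and of B cells to 54.0 to 90.8 CPM, the last 2 lists again with the lowest sum in AML replicate 1. Of the 7 monocyte and macrophage markers tested over all LSK cells, 4 were higher in AML at an unadjusted p under 0.05 and 1 lower, with a median log2 fold change of 1.498, and Ly6c2 was called (1.69 ± 0.27, edgeR adjusted p = 0.0183). Of the neutrophil markers 2 of 5 tested were lower at that level (median -1.09), of the mast cell and basophil markers 2 of 5 (median -0.40) and of the erythroid markers 1 of 9 (median -0.97), with 8 of the 9 below 0, and none was called by edgeR. Of the 5 B cell markers tested 0 were at that level (median 0.06), and of the 6 T and NK cell markers 1 was higher (median 0.35). The part of these cells in the members' values was not tested.

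The promoters of these genes carried the letters of both elements more often than promoters at large. RefSeq promoters (GRCm38.p6, from 250 bases before to 50 bases after the start) were found for 45 of the 51 genes, as 50 promoters. The CHR letters TTTGAA, on either strand, were present in 66.0% of them against 17.9% of all 32851 promoters, and CCAAT, on either strand, in 76.0% against 37.4%. At least 2 CCAAT occurred in 58.0% against 11.7%, and both motifs together in 54.0% against 6.95%. Promoters of the 43 Seurat S phase genes, of which 31 were matched, held CHR letters in 14.3% and CCAAT in 65.7%. Promoters of 75 other mitotic genes, of which 57 were matched, held CHR letters in 54.7%, CCAAT in 68.8% and both in 40.6%, so the motifs were also common outside the members. A match is a description of these letters, not a binding site. The 6 members whose AML effect differed between classes (below) and the abundant members Top2a and Cdk1 are shown as the 200 bases before the start, 5′ to 3′ on the gene's strand, with both motifs in capitals (ATTGG and TTCAAA are the same motifs on the opposite strand).
Ccnb2 (chr9:70421555-70421754, minus strand): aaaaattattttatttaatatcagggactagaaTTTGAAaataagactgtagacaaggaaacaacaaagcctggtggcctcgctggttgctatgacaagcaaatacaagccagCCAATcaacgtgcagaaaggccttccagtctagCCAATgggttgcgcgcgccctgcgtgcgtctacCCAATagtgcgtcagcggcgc
Hmmr (chr11:40733438-40733637, minus strand): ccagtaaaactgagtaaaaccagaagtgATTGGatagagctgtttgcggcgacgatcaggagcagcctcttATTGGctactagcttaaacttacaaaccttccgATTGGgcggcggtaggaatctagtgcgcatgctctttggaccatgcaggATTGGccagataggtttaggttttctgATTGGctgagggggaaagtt
Hmgb2 (chr8:57511643-57511842, plus strand): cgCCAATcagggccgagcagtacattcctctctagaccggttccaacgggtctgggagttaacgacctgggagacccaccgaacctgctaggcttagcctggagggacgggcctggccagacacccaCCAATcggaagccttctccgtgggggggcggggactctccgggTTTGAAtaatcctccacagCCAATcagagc
Mki67 (chr7:135716380-135716579, minus strand): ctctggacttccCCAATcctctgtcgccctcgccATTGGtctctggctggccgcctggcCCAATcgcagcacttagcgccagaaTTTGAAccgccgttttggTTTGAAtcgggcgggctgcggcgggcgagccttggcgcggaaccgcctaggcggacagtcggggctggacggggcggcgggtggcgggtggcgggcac
Cenpe (chr3:135212363-135212562, plus strand): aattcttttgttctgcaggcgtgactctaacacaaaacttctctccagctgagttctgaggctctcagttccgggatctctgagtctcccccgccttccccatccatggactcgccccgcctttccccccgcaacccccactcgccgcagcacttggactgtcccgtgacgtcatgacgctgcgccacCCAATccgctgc
Birc5 (chr11:117849037-117849236, plus strand): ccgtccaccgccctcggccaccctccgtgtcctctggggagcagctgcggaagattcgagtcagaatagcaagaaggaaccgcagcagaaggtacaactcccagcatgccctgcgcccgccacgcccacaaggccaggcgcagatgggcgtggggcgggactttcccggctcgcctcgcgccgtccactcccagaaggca
Top2a (chr11:99024190-99024389, minus strand): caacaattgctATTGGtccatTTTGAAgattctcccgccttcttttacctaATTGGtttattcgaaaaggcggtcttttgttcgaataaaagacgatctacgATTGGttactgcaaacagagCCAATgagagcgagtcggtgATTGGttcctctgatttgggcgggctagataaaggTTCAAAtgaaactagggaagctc
Cdk1 (chr10:69352913-69353112, minus strand): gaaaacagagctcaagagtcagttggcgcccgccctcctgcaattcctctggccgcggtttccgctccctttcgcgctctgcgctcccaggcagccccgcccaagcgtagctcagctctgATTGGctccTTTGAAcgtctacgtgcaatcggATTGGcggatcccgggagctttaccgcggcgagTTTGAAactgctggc
Top2a had 5 CCAAT and 2 CHR matches in this window, Hmmr had 5 CCAAT matches and no CHR match (its CHR letters begin 9 bases after the start), and Birc5 had neither. In Top2a and Cdk1 the CHR letters nearest to the start began 23 and 15 bases before it, and in Hmgb2 30 bases before it. In the whole 300 bases, Birc5, G2e3, Nuf2, Nusap1 and Tacc3 had neither motif, and of the 2 promoters of Cbx5 1 held a CCAAT match and the other neither motif.

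All 51 genes were detected in all 5 libraries, from a mean of 4.58 CPM for Gtse1 to 1005 CPM for Hmgb2. CPM here is taken over all UMIs of the library's table cells. Each UMI stands for 1 captured molecule whatever its length, so the values are not divided by length. The chromosome structure genes were led by Hmgb2, a DNA-bending chromatin protein, at 909, 1232 and 900.0 CPM in PBS replicates 1 to 3 and 1053 and 929 CPM in AML replicates 1 and 3. Top2a, the topoisomerase that untangles sister chromatids, stood at 276, 238 and 274 CPM in PBS and 759 and 301 CPM in AML. Only AML replicate 1 lay far from the rest for Top2a. Smc4, a condensin subunit, averaged 217 ± 31.8 CPM (SD, n = 5).

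Among the kinases and their activators, the CDK subunits Cks1b (243 ± 26.6 CPM) and Cks2 (179 ± 11.6 CPM) were the most abundant, and Nek2, a centrosome kinase (7.18 ± 2.51 CPM), and Cdc25c, the phosphatase that activates CDK1 (9.76 ± 4.16 CPM), the least (SD, n = 5). Cdk1 itself hardly varied between libraries, at 134, 135 and 132 CPM in PBS and 138 and 136 CPM in AML. Of the centromere and passenger genes Cenpa, the centromeric histone H3 variant, averaged 174 ± 18.0 CPM. Of the spindle genes Tubb4b, a beta-tubulin, averaged 230 ± 126 CPM, a spread set by PBS replicate 2 at 449 CPM against 140 to 202 CPM in the others. Kif2c, a microtubule-depolymerizing kinesin (9.87 ± 1.92 CPM), and Gtse1 were the lowest. Ube2c, the ubiquitin-conjugating enzyme of the anaphase promoting complex, averaged 221 ± 13.9 CPM. Tubb4b, Hmgb2 and Cks1b have close paralogs or processed pseudogenes, so their levels are uncertain to the extent that reads were shared with such copies.

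The deposited phases ordered the members, as they must, since phase is the higher of 2 scores built on genes of this kind, or G1 where neither is above 0 (that rule returned the deposited phase for 16822 of 16822 cells). These ratios are a description, with no test. The CPM in G2M cells over that in G1 cells had a median of 12.2 over the 51 genes and ranged from 1.74 for Lbr, the lamin B receptor, to 134 for Nek2. It was over 20 for 19 genes and under 5 for 11. Ube2c was at 6.87 ± 2.82 CPM in G1, 23.0 ± 4.36 CPM in S and 670 ± 193 CPM in G2M (SD, n = 5 libraries). Cenpa was at 47.9, 36.8, 38.3, 50.7 and 39.8 CPM in G1 of PBS replicates 1 to 3 and AML replicates 1 and 3, and was lower in S in all 5 libraries, at 19.6 to 36.0 CPM, before 473 ± 124 CPM in G2M. Cbx5, the heterochromatin protein HP1 alpha, was the 1 member with a higher mean in S (175 ± 46.9 CPM) than in G2M (151 ± 48.4 CPM). Ttk, the spindle checkpoint kinase MPS1, was low in G1 (0.506 ± 0.415 CPM) and already at 8.52 to 18.6 CPM in S, against 31.5 ± 5.03 CPM in G2M.

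**Figure D1:**
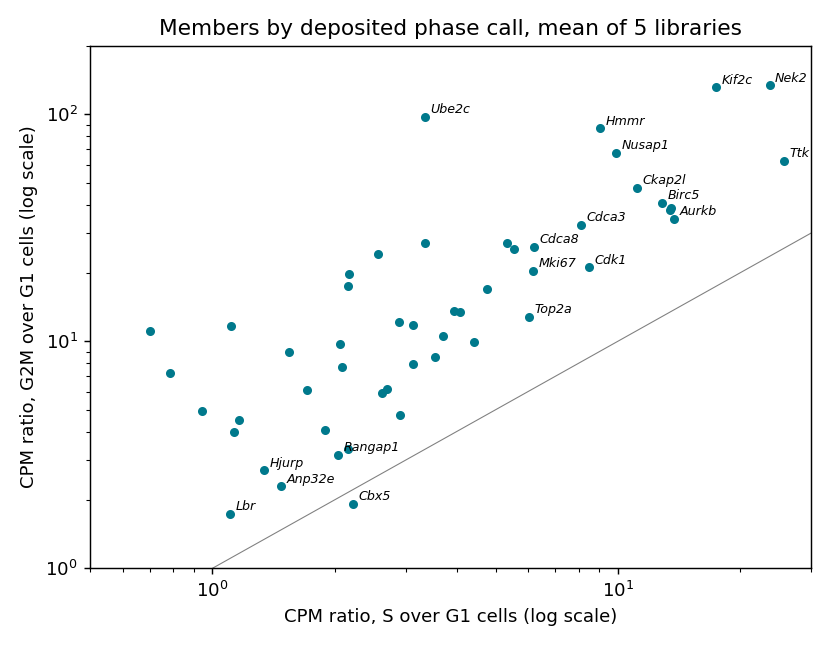
CPM ratio of S over G1 cells (x, log scale) and of G2M over G1 cells (y, log scale) for the 51 members, each the ratio of means over 5 libraries, with the diagonal where S and G2M are equal. Nek2 at 134 and Kif2c at 132 are highest in G2M over G1, Lbr is lowest at 1.74, and Cbx5 is the 1 gene under the diagonal.

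Across the classes, these genes were highest in MPP2 and mostly lowest in HSC. By the mean over libraries 50 of 51 were highest in MPP2, and 39 were lowest in HSC. MPP2 was above HSC in all 5 libraries for 41 members and was the highest class in every library for 36. In the PBS libraries the MPP2 level was a median of 6.75 times the HSC level, and ranged from 1.44 to 42.8 times. Among all 7510 genes with at least 10 CPM in MPP2 the median ratio was 0.909, against 6.94 for the 50 members among them. MPP4 and MPP3 lay at medians of 1.82 and 1.67 times HSC. MPP3 was above MPP4 in every library for 4 members, so that for most genes the order of these 2 classes differed between libraries or was the opposite. The authors called the classes from expression in the same cells, and the sources used here do not say whether their signatures hold members, so the class levels are a description and were not tested. Depth moved with class, and its part in the levels was not tested: the median UMIs per cell over all libraries were 3398 in HSC and 6709 in MPP2.

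**Figure D2:**
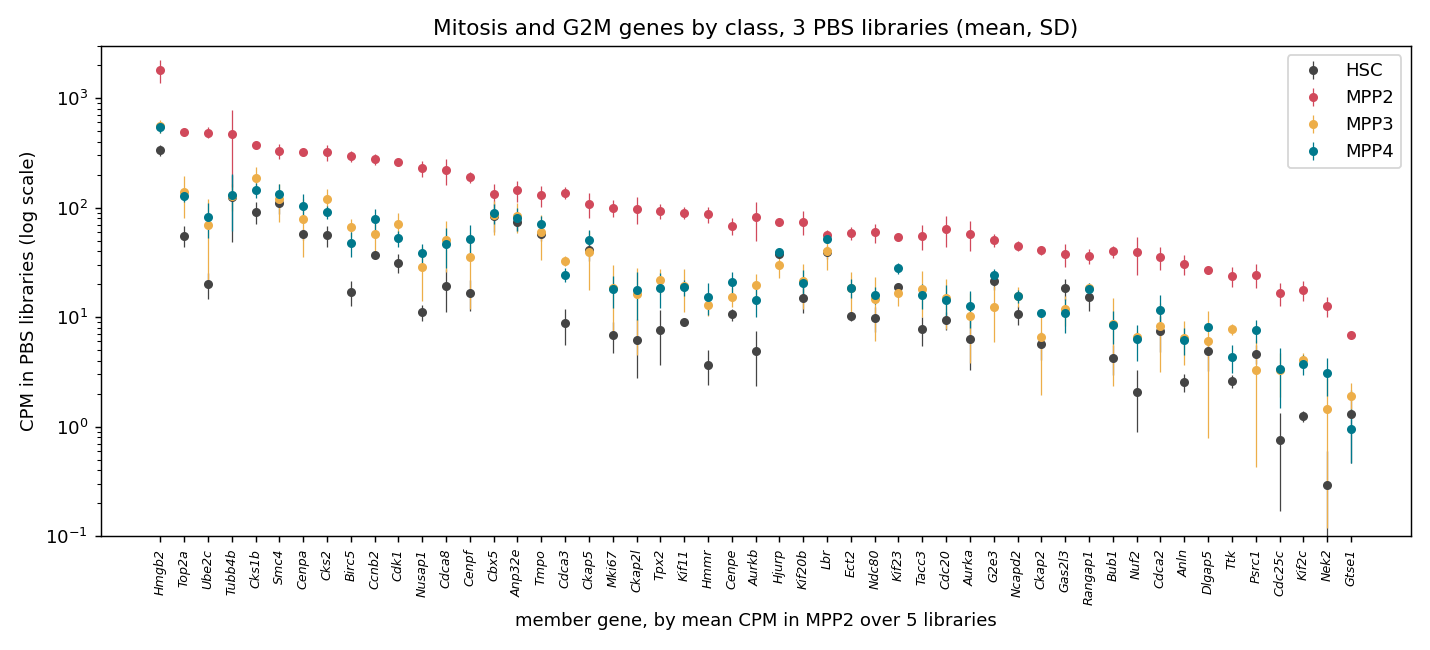
CPM (log scale) of each of the 51 members in the 4 classes, as the mean of 3 PBS libraries with SD bars, ordered by the mean in MPP2 over 5 libraries. MPP2 has the highest PBS mean for all 51, from Hmgb2 at 1812 CPM downwards, and Lbr has the smallest gap.

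The members with the steepest difference in PBS were Nek2, Ube2c, Hmmr, Cdc25c and Nusap1. Ube2c was at 25.7, 18.8 and 15.2 CPM in HSC and at 488, 539 and 429 CPM in MPP2 of PBS replicates 1 to 3. Hmmr, a hyaluronan receptor that binds spindle microtubules, was at 4.82, 2.28 and 3.95 CPM in HSC and 103, 78.0 and 79.4 CPM in MPP2. Nusap1, a spindle-associated protein, was at 10.3, 9.69 and 13.2 CPM in HSC and 215, 274 and 199 CPM in MPP2. For each of these 3 genes the MPP2 values lay above all HSC values. The ratios of Nek2 (42.8) and Cdc25c (22.1) rest on few molecules, with 3, 0 and 1 UMIs of Nek2 and 7, 1 and 1 of Cdc25c in HSC of the 3 PBS libraries. In AML replicate 1 the HSC class, with 23 cells, held 1 UMI of Nek2, 0 of Hmmr and 0 of Cdc25c.

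The flattest members were Lbr, Cbx5, Anp32e, Hjurp and Gas2l3. Lbr was at 41.4, 33.6 and 43.1 CPM in HSC and 61.9, 50.8 and 57.3 CPM in MPP2 of the PBS libraries, a ratio of 1.44, and the 179 CPM in HSC of AML replicate 1 rest on 11 UMIs. Cbx5 had a PBS mean of 84.4 ± 24.5 CPM in HSC and 134 ± 29.0 CPM in MPP2 (SD, n = 3), and its values overlapped, with 108 CPM in HSC of PBS replicate 1 and 103 CPM in MPP2 of PBS replicate 2. Anp32e, a histone chaperone for H2A.Z, stood at 74.7 ± 12.9 and 145 ± 32.1 CPM, and Hjurp, which loads the CENP-A histone at centromeres, at 37.8 ± 1.51 and 74.6 ± 2.75 CPM. Gas2l3, a cytoskeletal linker, was at 18.3 ± 4.03 CPM in HSC, 37.4 ± 8.95 CPM in MPP2 and at 15.1, 7.60 and 10.2 CPM in MPP4 of the 3 libraries. By role, the median ratio of MPP2 over HSC in PBS was 9.08 for the 11 kinases and activators, 8.92 for the 8 passenger and centromere genes, 5.54 for the 15 spindle genes and 2.29 for the 3 nuclear envelope genes Lbr, Tmpo and Rangap1.

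The clusters split the members further. By pooled CPM 29 members were highest in cluster 3, 12 in cluster 5, 5 in cluster 7, 3 in cluster 0 and 2 in cluster 8, and 51 of 51 were lowest in cluster 6. Clusters 7 and 8 are small, with 102 and 113 cells over all libraries, and a rank there can rest on few molecules, such as 5 UMIs of Nek2 in cluster 8. Cluster 3, with 1445 cells, summed to 7392 ± 709 CPM of members and 4120 ± 497 CPM of the S phase genes (SD, n = 5). Cluster 5, with 339 cells, summed to 5993 ± 438 CPM of members and only 1759 ± 620 CPM of the S phase genes. Its calls were 53.4% G2M, 44.2% G1 and 2.36% S. The 12 members highest there were Ccnb2, Cenpa, Cenpe, Cenpf, Cdc20, Cdc25c, Tpx2, Kif2c, Ckap2, Ckap5, Dlgap5 and Psrc1. Ccnb2, a B-type cyclin, was at 676, 649 and 553 CPM in cluster 5 of the PBS libraries and 472 and 699 CPM in that of AML replicates 1 and 3, against 178, 186, 166, 90.3 and 124 CPM in cluster 3. Every cluster 5 value lay above every cluster 3 value. Cluster 6, with 177 cells, summed to 675 ± 526 CPM of members. The clusters were formed from the same cells, so these values are not tested.

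Within cells the members were also described at equal depth, after each cell was thinned to 2000 UMIs, which left out 205 PBS cells and no AML cell. In PBS a thinned MPP2 cell held UMIs of a median of 8 to 10 members and an HSC, MPP3 or MPP4 cell of 2 to 3. In AML replicate 1 the medians were 9 in MPP2, 7 in MPP3, 5 in MPP4 and 4 in HSC, and in AML replicate 3 they were 9, 4, 2 and 2. Over the 20 sums of a library and a class, pairs of members had a median Pearson r of 0.826 (0.0127 to 0.986, 1275 pairs), as a description of sums that share libraries, depth and class. The member total followed the S phase total over these sums (r = 0.945) but hardly over thinned cells within a library, with r from -0.181 in AML replicate 1 to 0.198 in PBS replicate 2.

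Summed over all LSK cells, most members had a higher fitted level in AML, and no member passed the test. edgeR's quasi-likelihood test with Benjamini-Hochberg adjustment over all genes called 0 of 51, where it called 0.16% of all 14364 genes tested. At an unadjusted p under 0.05 it gave 10 of 51, all higher in AML, against 5.51% of all genes higher at that level. DESeq2 also called 0 (9 unadjusted) and limma-voom 0 (5 unadjusted), with the shares of all genes in those fits not given here. Fold changes were above 0 for 40 members, where 47% of all genes were, and their median was 0.29 on the log2 scale, against -0.03 for all genes. Both AML libraries lay above all 3 PBS libraries for 13 members (14.6% of all genes) and below them for 2 (17.4% of all genes). In such sums, more cycling cells and more RNA per cycling cell cannot be told apart.

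Top2a had the largest fold change. Its CPM on the normalised (TMM) library size was 257, 243 and 296 in PBS and 762 and 294 in AML replicates 1 and 3, so the groups overlapped. The log2 fold change was 0.99 ± 0.34 (SE, edgeR adjusted p = 0.329), and 0.16 without AML replicate 1. Cenpe, a kinesin that moves chromosomes to the metaphase plate, was at 38.9, 31.4 and 42.9 normalised CPM in PBS and 92.9 and 43.5 in AML, a log2 fold change of 0.80 ± 0.29 (edgeR adjusted p = 0.358), and 0.22 without AML replicate 1. Cbx5 (0.71 ± 0.27), Ect2, an exchange factor for RhoA in cytokinesis (0.67 ± 0.25), and Ndc80, a kinetochore subunit (0.66 ± 0.27), followed on the log2 scale, and were 0.35, 0.28 and 0.16 without AML replicate 1. For Cenpe, Cbx5, Ect2 and Ndc80 both AML values lay above all PBS values, AML replicate 3 by little. In each of these 5 genes AML replicate 1 was the higher AML library.

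The lowest fold changes were those of Tubb4b, Psrc1, Ube2c, Dlgap5 and Ccnb2, at -0.58, -0.29, -0.18, -0.16 and -0.16 on the log2 scale, with edgeR adjusted p from 0.606 to 0.815. Tubb4b was at 188, 457 and 151 normalised CPM in PBS and 203 and 153 in AML, and its fold change turned to 0.082 without PBS replicate 2. Ccnb2 was at 150, 146 and 150 normalised CPM in PBS and 140 and 126 in AML, so its AML values lay just below, as did those of Ube2c. The signs of Ube2c and Ccnb2 turned to 0.021 and 0.087 when cells were thinned to equal depth.

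The median moved with AML replicate 1 and with the class shares. Without that library the median log2 fold change of the 51 genes was 0.01, with 0 members at an unadjusted p under 0.05, and without AML replicate 3 it was 0.55, with 7 members called, where 419 of all genes were called. When each library was drawn to the same class shares, which left 122 cells of AML replicate 1, the median was 0.05, with 4 members at an unadjusted p under 0.05 (4.96% of all genes in either direction) and Top2a at 0.67. MPP2 made up 46.9% of table cells in AML replicate 1 against 26.3% to 31.8% in the other libraries, and HSC 3.32% against 13.7% to 23.9%. Members summed to 6194 CPM in AML replicate 1 and to 4333 to 4882 CPM in the other libraries.

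Depth moved with these values. In the 5 libraries with table cells the members' summed CPM was higher in the barcodes with the most UMIs than in those of 500 to under 2000 UMIs (in AML replicate 2 these sets overlap), and the table holds no cell of AML replicate 1 with under 2001 UMIs. Over the 7.89% of barcodes with the most UMIs, members summed to 6682, 7029 and 5749 CPM in the PBS libraries and to 5962, 6111 and 5204 CPM in AML replicates 1, 2 and 3. At that equal share, AML replicate 1 lay within the range of the PBS libraries, but the share matches neither depth nor cell type. Its lowest UMI count was 7806, 18531 and 8794 in PBS and 2122 in AML replicate 1. In its 7205 barcodes with 500 to under 2000 UMIs and at most 10% mitochondrial UMIs, all outside the table, members summed to 4038 CPM, against 3388, 5143 and 2639 CPM in such barcodes of the PBS libraries. With the table cells limited to that share (an alternative chosen after the values were seen), the median log2 fold change of members was -0.26, with 0 called and 6 at an unadjusted p under 0.05 (9.34% of all genes in either direction, edgeR). With each table cell thinned to 2000 UMIs instead, the median was 0.54 in place of 0.29, with 0 called and 21 members at an unadjusted p under 0.05 (10.1% of all genes in either direction), and Top2a was at 1.48 and Ndc80 at 1.06. In thinned cells without AML replicate 1 (chosen after the values were seen) the median was 0.11, with 0 called and 0 at an unadjusted p under 0.05 (4.12% of all genes). The settings thus moved the median in opposite directions. Thinning makes the UMIs per cell equal but not the choice of barcodes, since the table cells of AML replicate 1 are those over 2000 UMIs.

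**Figure D3:**
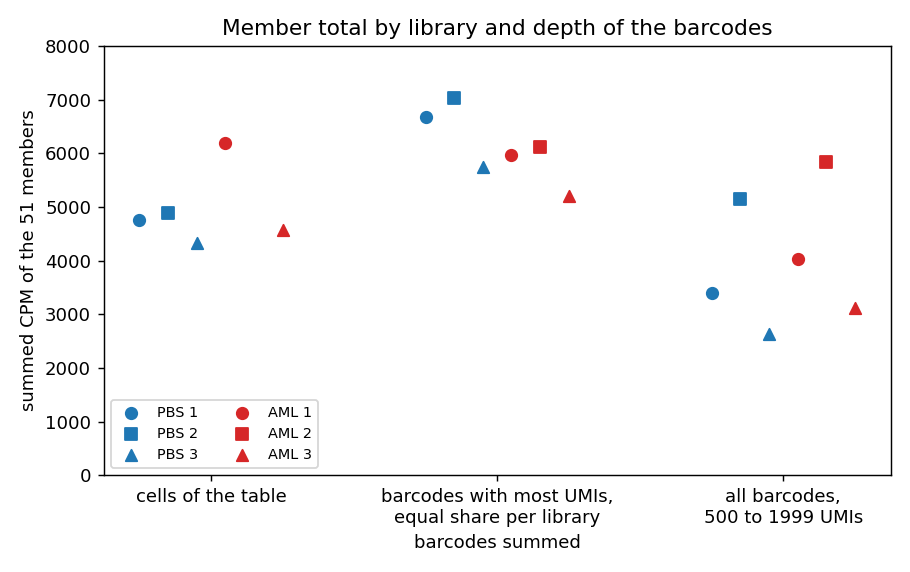
Summed CPM of the 51 members (y) in 6 libraries for 3 choices of barcodes (x): cells of the deposited table, the barcodes with the most UMIs at an equal share of each library, and barcodes of 500 to under 2000 UMIs with at most 10% mitochondrial UMIs. Among table cells AML 1 is highest at 6194 CPM, and at an equal share of barcodes, not of depth, it lies among the PBS libraries. AML 2 has no table cells, and 1223 of the 1256 barcodes of PBS 2 also occur in it.

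Within classes the fold changes of the members lay mostly above 0 in MPP3 and MPP4 and around 0 in MPP2 and HSC. No member passed the adjusted test in any class (edgeR, 0 of 43 tested in HSC, 0 of 51 in MPP2, 0 of 50 in MPP3, 0 of 51 in MPP4), where 0.178%, 0.0399%, 0.0486% and 0.0325% of all genes were called. In MPP3, 48 of 50 members had fold changes above 0 (48.6% of all genes), 21 were at an unadjusted p under 0.05, all higher (3.69% of all genes), and in 33 both AML libraries lay above all PBS libraries (12% of all genes). In MPP4 these counts were 50 of 51 (47.8% of all genes), 23 (3.47%) and 34 (13.2%). The median log2 fold change was 0.69 in MPP3 and 0.62 in MPP4, against -0.01 and -0.02 for all genes. Without AML replicate 1 the medians were 0.41 and 0.29, with 3 and 5 members at an unadjusted p under 0.05 and again 0 called by edgeR, and those of HSC and MPP2 were 0.03 and -0.10. In the same fits of MPP3 and MPP4, 1 and 2 of 43 S phase genes were at that level. The share of all genes at that level in those fits is not given here.

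Markers of other cells moved in all 4 classes, and those in MPP3 are given first. Of mast cell and basophil markers 4 of 5 tested were lower in AML at an unadjusted p under 0.05, of erythroid markers 4 of 5, with 1 called, and of B cell markers 2 of 4, and the 1 neutrophil marker tested was called lower (edgeR). The summed level of the mast cell and basophil list in MPP3 was 62.7 to 267 CPM in PBS and 17.9 and 68.0 CPM in AML, that of the erythroid list 28.9 to 434 and 21.1 and 109.6 CPM, that of the B cell list 161 to 284 and 58.5 and 128 CPM, and that of the neutrophil list 5.11 to 116 and 0 and 5.69 CPM. Of the 6 monocyte and macrophage markers tested there 2 were higher, and of the 4 T and NK cell markers 0 were at that level. In MPP4 all 4 erythroid markers tested were below 0, 2 of them at an unadjusted p under 0.05 (median -1.04), with sums of 50.9 to 85.9 CPM in PBS and 42.8 and 58.0 CPM in AML. At that level 1 of 3 T and NK cell, 1 of 3 B cell and 1 of 2 mast cell and basophil markers were higher there and 1 of 4 monocyte and macrophage markers lower, and edgeR called none. In MPP2, 3 of 5 monocyte and macrophage markers tested were higher at that level and 1 lower. Of 8 erythroid markers 3 were higher and 1 lower there. Also in MPP2, 2 of 3 mast cell and basophil markers were lower and 1 of 3 T and NK cell markers higher. edgeR called 0 of these in MPP2, and without AML replicate 1 it called 3 erythroid markers higher there. In HSC, edgeR called 4 of the 5 erythroid markers tested lower in AML (median -5.62). Among them, Hba-a1 was at 449, 2.53 and 199.8 normalised CPM in PBS replicates 1 to 3 and 0 and 4.63 in AML replicates 1 and 3. Without AML replicate 1, 0 were called there, and 4 of 6 erythroid markers tested were lower at an unadjusted p under 0.05. Of 2 monocyte and macrophage markers tested in HSC 1 was lower at that level. The part of these cells in the members' class values was not tested.

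**Figure D4:**
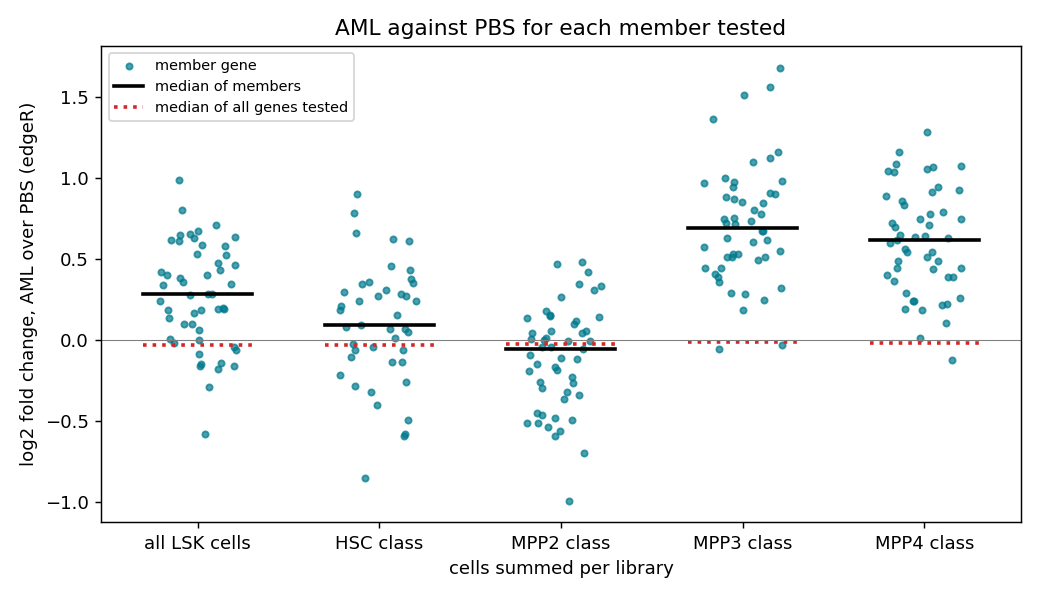
Log2 fold change of AML over PBS (edgeR, y) for each member tested in all LSK cells and in the 4 classes (x), with the median of members as a solid line and that of all genes tested as a dotted line. The members' median is 0.69 in MPP3 and 0.62 in MPP4 and lies near 0 in MPP2.

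Every role shared this in MPP3. All 11 kinases and activators, all 8 passenger and centromere genes and all 7 chromosome structure genes had fold changes above 0 there, with medians of 0.72, 0.62 and 0.87 on the log2 scale, and 12 of the 14 spindle genes tested did. Nusap1 had the largest, from 34.1, 15.5 and 37.2 normalised CPM in PBS to 178 and 40.1 in AML, a log2 fold change of 1.68 ± 0.45 (edgeR adjusted p = 0.205). AML replicate 3 lay only just above the highest PBS library. Cenpe followed at 15.3, 15.5 and 17.4 normalised CPM in PBS and 79.8 and 28.0 in AML, at 1.56 ± 0.38 (edgeR adjusted p = 0.154). The lowest was Dlgap5, a spindle protein, at -0.06, with 0 UMIs in PBS replicate 2.

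In MPP4 Top2a had the largest fold change, from 140, 120 and 138 normalised CPM in PBS to 498 and 181 in AML, at 1.28 ± 0.30 (edgeR adjusted p = 0.136). Mki67, the Ki-67 protein that coats mitotic chromosomes and marks cycling cells, was at 19.9, 11.7 and 23.7 normalised CPM in PBS and 75.3 and 30.8 in AML, at 1.17 ± 0.32 (edgeR adjusted p = 0.311). Both genes were above PBS in both AML libraries. Tubb4b was the 1 member below 0 in this class, at -0.12. The deposited phases, which were called from genes of this kind, gave these shares: G2M cells were 41.0% of MPP4 in AML replicate 1 and 11.6% in AML replicate 3, against 8.73%, 4.68% and 6.50% in PBS, and 44.3% and 19.2% of MPP3 against 10.6%, 4.88% and 11.1%. In MPP2 they were 64.0% and 56.9% against 52.8%, 55.3% and 50.4%, and in HSC 26.1% (6 of 23 cells) and 2.95% against 1.79% to 2.498%. The G2M share was thus above all PBS libraries in both AML libraries in each of the 4 classes, also in MPP2, where the members' fold changes lay around 0.

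In MPP2, the class with the highest levels, 20 of 51 members were above 0 (47.9% of all genes), 3 were at an unadjusted p under 0.05, all lower (3.14% of all genes), and the median log2 fold change was -0.06. Both AML libraries lay below all PBS libraries for 13 members (14.8% of all genes) and above them for 4 (14.1% of all genes). Tubb4b was the lowest, at -0.99 ± 0.42, with 861 normalised CPM in PBS replicate 2 and 325 and 251 in PBS replicates 1 and 3 against 230 and 250 in AML (edgeR adjusted p = 0.614). Psrc1, a spindle protein, was at 22.6, 31.9 and 20.1 normalised CPM in PBS and 13.8 and 15.7 in AML, at -0.70 ± 0.28 (edgeR adjusted p = 0.601). Top2a was again the highest, at 0.49 ± 0.29 (edgeR adjusted p = 0.692). In HSC, 27 of the 43 members tested were above 0 (46.9% of all genes) and 1 was higher at an unadjusted p under 0.05 (2.02% of all genes). The 8 members not tested there, with few UMIs, were Cdc25c, Ttk, Nek2, Nuf2, Kif2c, Gtse1, Hmmr and Anln. The median log2 fold change was 0.09, with Top2a highest at 0.90 ± 0.29 (edgeR adjusted p = 0.439) and Cdc20, the activator of the anaphase promoting complex, lowest at -0.85 ± 0.56 (edgeR adjusted p = 0.992). Both AML libraries lay above all PBS libraries for 9 members in HSC (11% of all genes).

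By cluster, edgeR called 0 members in clusters 0 to 4, those with at least 20 cells in each library, where 0.0407%, 0.155%, 0.199%, 0.156% and 0.522% of all genes were called. The medians of their log2 fold changes were 0.13, 0.46, 0.46, -0.16 and 0.16. In cluster 1, 10 members were at an unadjusted p under 0.05, all higher (4.45% of all genes), and in 16 both AML libraries lay above all PBS libraries (13.6% of all genes). In cluster 2 these counts were 15 (3.24%) and 27 (12.3%). In cluster 3, where most members were highest, 2 members were at that level, both lower (1.89% of all genes): Tubb4b and Ccnb2, at log2 fold changes of -1.06 and -0.70 (edgeR adjusted p = 0.603 and 0.984). When AML replicate 1 was left out (chosen after the values were seen) the medians in clusters 0 to 4 were -0.04, 0.15, 0.28, -0.11 and 0.06, and 0 members of clusters 1 to 4 and 2 of cluster 0 were at an unadjusted p under 0.05, with 0 called by edgeR in any of the 5. The 2 of cluster 0 were lower, and the share of all genes at that level in these fits is not given here. Of the markers of other cells, 3 of 5 monocyte and macrophage markers tested in cluster 1 were higher at an unadjusted p under 0.05 (median 2.08), with Csf1r called at 0.493, 0.441 and 1.61 normalised CPM in PBS and 13.1 and 7.35 in AML (edgeR adjusted p = 0.0243). Erythroid markers were lower at that level for 4 of 6 in cluster 0 (median -2.53). They were also lower for 2 of 4 in cluster 1 (median -1.20) and for 2 of 3 in cluster 2 (median -1.67), and 1 of 2 was higher in cluster 3. All 5 mast cell and basophil markers tested in cluster 4 were lower at that level (median -2.13). Of these, edgeR called Cpa3, Mcpt8, Gzmb and Ms4a2, at adjusted p from 1.29e-05 to 0.0137. Without AML replicate 1 it also called 4 of this list lower there. Monocyte and macrophage markers at that level went both ways in clusters 0, 1, 2 and 4. Their part in the members' values was not tested.

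The test of the difference itself asked whether the AML effect was the same in the 4 classes. It called 6 of 51 members, Ccnb2, Hmmr, Hmgb2, Mki67, Cenpe and Birc5, where it called 0.872% of 12734 genes, and 39 members were at an unadjusted p under 0.05 (10.9% of all genes). The effects are taken relative to HSC, where the sums of AML replicate 1 rest on 23 cells. For 51 of 51 members the estimated AML effect was higher in MPP3 than in MPP2 (52.3% of all genes), by a median of 0.68 on the log2 scale, and for 51 of 51 it was higher in MPP4 than in MPP2 (52.2% of all genes), by a median of 0.60. Both contrasts use the same MPP2 sums, so the counts are not independent of each other. The members also rise and fall together over the sums (median pair r = 0.826), so the 51 are not independent observations. The count of calls moved between 2 and 14 when 1 library was left out. It was 2 without PBS replicate 1, 10 without PBS replicate 2, 5 without PBS replicate 3, 3 without AML replicate 1 and 14 without AML replicate 3, where 29, 189, 50, 89 and 108 of all genes were called. limma-voom with a random library term called 0 (8 at an unadjusted p under 0.05, given without the share of all genes), and 1 of all genes.

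Ccnb2 had the lowest p (edgeR adjusted p = 0.000301) and stayed called in each of the 5 fits that left out 1 library. Its CPM in MPP2 was 308, 280 and 244 in PBS and 172 and 208 in AML, and in MPP3 68.9, 37.4 and 65.3 in PBS and 114 and 103 in AML. The AML libraries thus lay below PBS in MPP2 and above it in MPP3. Birc5, survivin of the chromosomal passenger complex, had a similar layout in MPP2, at 294, 331 and 262 CPM in PBS and 164 and 255 in AML, and in MPP3 at 66.7, 54.5 and 78.7 in PBS and 79.6 and 116 in AML (edgeR adjusted p = 0.0407). In MPP3 AML replicate 1 and PBS replicate 3 lay close for Birc5. With the TMM factors of MPP3, 1.08 and 0.944 for these 2 libraries, their order turns, so the normalised groups overlap. Hmgb2 was at 1627, 2305 and 1505 CPM in MPP2 in PBS and 1227 and 1479 in AML, and at 586, 475 and 609 CPM in MPP3 in PBS and 846 and 787 in AML (edgeR adjusted p = 0.00894).

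For Hmmr, Mki67 and Cenpe the MPP2 values of the groups overlapped, and the MPP3 and MPP4 values did not. Hmmr was at 15.5, 10.2 and 13.0 CPM in MPP3 in PBS and 42.2 and 20.2 in AML, and at 20.6, 10.6 and 14.9 CPM in MPP4 in PBS and 54.2 and 21.0 in AML (edgeR adjusted p = 0.00776), with 0 UMIs in HSC of AML replicate 1. Mki67 was at 22.1, 5.11 and 27.8 CPM in MPP3 in PBS and 69.8 and 39.3 in AML (edgeR adjusted p = 0.0136), and Cenpe at 17.7, 11.9 and 16.3 CPM in PBS and 86.1 and 30.2 in AML (edgeR adjusted p = 0.0343). Without AML replicate 1, Ccnb2, Birc5 and Hmmr were called, and Hmgb2, Mki67 and Cenpe had edgeR adjusted p of 0.0562, 0.0624 and 0.104. Of the 6 sequences shown above for these genes, those of Ccnb2, Hmgb2 and Mki67 hold both motifs and that of Birc5 holds neither.

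**Figure D5:**
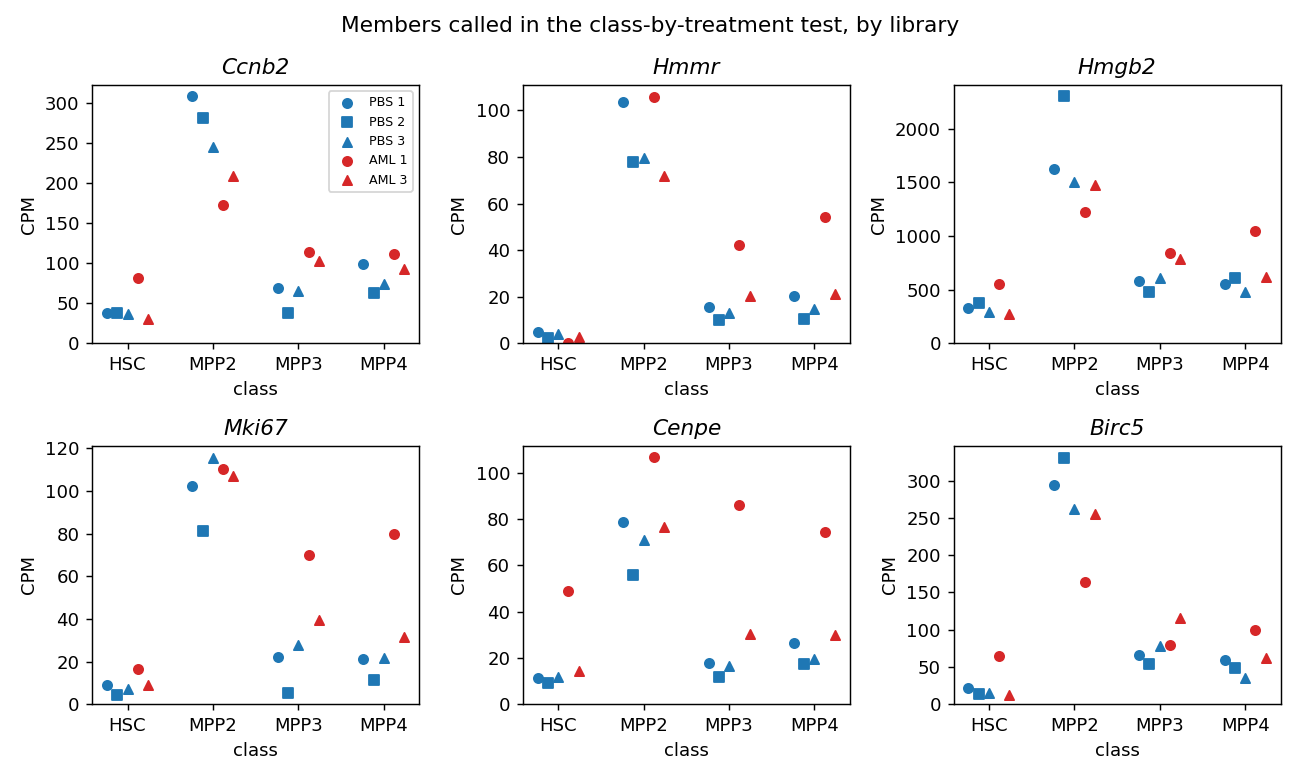
CPM (y, from 0) of the 6 members called in the class-by-treatment test, by class (x) and library (blue PBS, red AML, marker shape for the replicate). In MPP3 both AML libraries lie above all PBS libraries for all 6 genes on this scale without TMM, Birc5 by so little that its TMM-normalised groups overlap. In MPP2 both AML libraries lie below all PBS libraries for Ccnb2, Hmgb2 and Birc5.

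Depth and makeup within the classes were set beside these values. Limited to table cells among the 7.89% of barcodes with the most UMIs, members summed to 3543, 2011 and 3326 CPM in MPP3 of the PBS libraries and to 5198 and 4200 CPM in AML, from 105, 11, 87, 228 and 170 cells. In MPP4 the same sums were 6434, 5629 and 5285 CPM in PBS and 5443 and 5174 CPM in AML, from 112, 16, 42, 117 and 34 cells. In MPP2 they were 8678, 9120 and 7510 CPM in PBS and 7296 and 6833 CPM in AML, from 394, 62, 273, 325 and 178 cells. In HSC they were 3945, 1986 and 3067 CPM in PBS and 3997 and 2400 CPM in AML, from only 32, 2, 17, 23 and 6 cells. The AML libraries thus lay above PBS in MPP3 at this share of barcodes, below PBS in MPP2, and overlapped PBS in MPP4. The depth was not equal, with lowest UMI counts of 7806, 18531 and 8800 in PBS and 2001 and 12616 in AML. Cluster 4 made up 25.9% and 33.3% of MPP3 in AML replicates 1 and 3 and 13.9%, 24.4% and 21.3% in PBS. Cluster 6, where all members were lowest, made up 3.51% and 6.69% in AML and 6.66%, 29.3% and 9.48% in PBS. Cluster 3, which held the highest member sums, made up 11.1% and 27.7% of MPP2 in AML and 22.6%, 37.9% and 24.5% in PBS, and cluster 1 29.5% and 18.1% against 16.3%, 16.7% and 21.5%. Without cluster 3 (chosen after the values were seen) the MPP2 median was -0.08, with 5 members at an unadjusted p under 0.05 (8.09% of all genes), and the class-by-treatment test called 10 members and 157 of all genes. Without cluster 4 (also chosen after the values were seen) the median log2 fold change in MPP3 was 0.64 over 47 members tested, with 12 at an unadjusted p under 0.05, and the class-by-treatment test called 4 members and 41 of all genes. Without cluster 6 (also chosen later) the MPP3 median was 0.69, with 20 members at an unadjusted p under 0.05, and that test called 12 and 161 of all genes. With the cells thinned to 2000 UMIs (also chosen later) it called 17 and 87 of all genes, and the MPP3 and MPP4 medians were 0.79 and 0.67. The share of all genes at an unadjusted p under 0.05 in MPP3 without cluster 4 or 6 is not given here.

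Other genes of the cycle, from lists by function, are given beside the members. Of 75 further mitotic genes, 0 passed the adjusted edgeR test over all LSK cells, with 15 higher and 1 lower at an unadjusted p under 0.05 and a median log2 fold change of 0.21. Espl1, the separase that cleaves cohesin (1.48 ± 0.39), Prc1, which bundles the spindle midzone (1.03 ± 0.39), and Mybl2, the B-MYB factor (0.92 ± 0.27), were highest, and Stmn1, Pimreg and Zwint lowest at -0.56, -0.52 and -0.50. Prc1 was at 129, 71.6 and 111 normalised CPM in PBS and 328 and 102 in AML replicates 1 and 3, so that AML replicate 3 lay among the PBS libraries. Without AML replicate 1 the fold changes of Espl1, Prc1 and Mybl2 were 0.67, -0.01 and 0.68, and the median of this list was 0.06, with 2 genes at an unadjusted p under 0.05, both higher. In MPP3 and MPP4 the medians of this list were 0.53 and 0.53, with 25 and 23 genes at an unadjusted p under 0.05, all higher (3.69% and 3.47% of all genes), and in MPP2 the median was -0.14. Without AML replicate 1 the medians in MPP3, MPP4 and MPP2 were 0.38, 0.26 and -0.07, with 9, 6 and 0 genes at that level. By cluster, edgeR called 2 genes of this list, both in cluster 2, Plk4, a centriole kinase, at 15.6, 9.63 and 24.6 normalised CPM in PBS and 149 and 22.8 in AML (adjusted p = 0.0359), and Prc1 at 89.3, 25.9 and 76.3 in PBS and 368 and 79.8 in AML (adjusted p = 0.0354). Both rest on AML replicate 1, and without it their log2 fold changes were 0.41 and 0.28, with edgeR adjusted p of 0.9995. Of the 43 S phase genes 0 passed, with 7 at an unadjusted p under 0.05, all higher, and a median of 0.16 over all LSK cells. Their medians were 0.13 in MPP3 and 0.21 in MPP4, where those of the members were 0.69 and 0.62. Without AML replicate 1 the S phase medians there were 0.097 and 0.099, against 0.41 and 0.29 for the members. Wdr76 (0.97 ± 0.30), Hells (0.86 ± 0.28) and Blm (0.70 ± 0.27) were the highest and Chaf1b, Rfc2 and Cenpu the lowest at -0.53, -0.46 and -0.28. The median without AML replicate 1 was 0.07 over all LSK cells, with 0 genes at an unadjusted p under 0.05, and Wdr76, Hells and Blm were at 0.36, 0.40 and 0.35. Of 23 genes of the DREAM, MuvB, E2F and FOXM1 regulators, 0 passed, with Mybl2, E2f3 and E2f7 highest at 0.92, 0.54 and 0.51, and Tfdp2, E2f5 and Lin37 lowest at -0.27, -0.23 and -0.22. In the fit without AML replicate 1 Mybl2, E2f3 and E2f7 were at 0.68, 0.30 and 0.59 and Lin37 turned to 0.02.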

How the data were processed

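Single cells of 6 libraries were measured on the 10x Chromium V3 chemistry. The authors deposited UMI counts per gene and barcode, made with Cell Ranger 7.0.1 on GRCm38 (mm10) as their notes name it, with 1 matrix per library and no normalisation. They also deposited a table of cells, made with Seurat 4.3.0 under R 4.2.2, with UMI and gene counts, class, cluster, phase and the S and G2M score of each cell. Cell filters, doublet handling and the class signatures are not stated there, and doublets were not called here. Another 17 columns of that table were not used. Its UMI totals equalled the matrices in 16822 of 16822 cells.

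UMI counts were summed per library, and per library and class or cluster with at least 20 cells in each library. AML was compared with PBS by edgeR 4.0.16 (quasi-likelihood, TMM, genes filtered by filterByExpr, Benjamini-Hochberg over all genes, threshold 0.05), and the class difference by 1 term per library and an F test of the 3 class-by-treatment terms, on 3 PBS and 2 AML libraries, since AML replicate 2 has no cell in the table. Total UMIs in table cells ran from 1945659 to 32123508 per library, and this depth limits low genes, above all in AML replicate 1. Alternatives used DESeq2 1.42.0, limma 3.58.1 and the settings given at the end. Seeds were fixed and the test was tried on simulated data. Figures used matplotlib 3.10.9.

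The members and gene lists were chosen with earlier results of these data known. Members given in full were those called, the 5 highest and 5 lowest fold changes over all LSK cells, the highest and lowest in each class, the 8 highest and 4 lowest by level, and the 5 highest and 5 lowest ratios of MPP2 over HSC with at least 10 CPM in MPP2. Members named by phase or cluster, and Cenpe in MPP3, Mki67 in MPP4, Psrc1 in MPP2 and Tubb4b and Ccnb2 in cluster 3, were chosen after their values were seen. So were Csf1r, Plk4, Prc1, Cpa3, Mcpt8, Gzmb and Ms4a2 by cluster, Hba-a1 in HSC, and the promoters of Top2a and Cdk1.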

Additional observations from a re-analysis of the deposited data

Results flagged for a closer look

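The AML effect differed between the 4 classes for 6 members, by edgeR's test of the class-by-treatment terms, with adjusted p of 0.000301 for Ccnb2, 0.00776 for Hmmr, 0.00894 for Hmgb2, 0.0136 for Mki67, 0.0343 for Cenpe and 0.0407 for Birc5. With the library as a random term, whose correlation is estimated, limma-voom called 0 members. Relative to the effect in HSC, the AML effect on Ccnb2 was -0.20 in MPP2, 1.03 in MPP3 and 0.51 in MPP4 on the log2 scale, that on Hmmr 0.22, 1.20 and 0.96, that on Hmgb2 -0.21, 0.60 and 0.66, that on Mki67 -0.21, 0.69 and 0.58, that on Cenpe -0.35, 0.65 and 0.07, and that on Birc5 0.24, 1.18 and 0.96. The sizes rest on the HSC sums, where AML replicate 1 has 23 cells and edgeR called 4 of 5 erythroid markers lower in AML. Without AML replicate 3, which leaves that library alone in AML, the effects relative to HSC in MPP2, MPP3 and MPP4 were -1.52, 0.00 and -0.42 for Ccnb2, -2.34, -1.38 and -0.52 for Birc5, -0.95, 0.05 and 0.48 for Hmgb2, -0.72, 0.83 and 1.19 for Mki67, and -1.25, 0.56 and -0.15 for Cenpe, and those of Hmmr, with 0 UMIs in that HSC sum, give no usable size. The signs in MPP3 and MPP4 thus turned for Birc5, and in MPP4 for Ccnb2 and Cenpe. Without AML replicate 1 the effects in MPP3 were 1.06 for Ccnb2, 1.39 for Birc5, 0.72 for Hmgb2, 0.65 for Mki67, 0.58 for Cenpe and 1.09 for Hmmr. In the fits that left out 1 library, Ccnb2 had adjusted p from 6.66e-07 to 0.0200, Hmgb2 from 0.00039 to 0.0562, Mki67 from 0.00616 to 0.109, Birc5 from 0.00194 to 0.126, Hmmr from 0.0049 to 0.146 and Cenpe from 0.00368 to 0.434.

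AML replicate 2, which has no cell in the deposited table and enters no comparison other than the alternative over all barcodes of 6 libraries, also held these transcripts. In its 106 barcodes that passed a filter of 1000 or more genes and no more than 10% mitochondrial UMIs, members summed to 6643 CPM, against 4262, 4318 and 3811 CPM in the PBS libraries under the same filter, 6072 CPM in AML replicate 1 and 4128 CPM in AML replicate 3. These barcodes are 0.622% of its 17055, whose median was 320 UMIs, while the filter kept 89.7% to 92.0% of the barcodes of the PBS libraries, so the sets compared are not alike. Over the 7.89% of barcodes with the most UMIs, the library lay within the PBS range, at 6111 against 5749 to 7029 CPM. The labels and methods do not say why the table holds none of its cells, and a failed library was not tested for. Of these 106 barcodes, 11 (10.4%) were also under that filter in another library, and the library shared 1500, 1223 and 2472 of its barcodes with PBS replicates 1, 2 and 3, and 624 and 2408 with AML replicates 1 and 3. Those libraries hold 9601, 1256, 6230, 8781 and 5587 barcodes in that order, so nearly all barcodes of PBS replicate 2 also occur in AML replicate 2. The source of the shared barcodes was not tested.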

How the results depend on the processing

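For each named fold change over all LSK cells, 149 of 160 alternative values kept their direction and side of the threshold, 4 passed the threshold and 7 changed sign. Those that changed sign were Tubb4b, at 0.066 with a replicate block and 0.082 without PBS replicate 2 (-0.84 to 0.082 over the fits without 1 library), Ube2c, at 0.021 in thinned cells and 0.18 under a filter of at least 1000 genes on all barcodes of 6 libraries, Ccnb2, at 0.087 and 0.078 in the same settings, and Dlgap5, at 0.026 in the latter. The cause was not tested. The 4 that passed were Top2a, Cenpe, Ect2 and Ndc80 without AML replicate 3, where AML replicate 1 is the lone AML library and is assumed to vary like the PBS group.

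The count of members called over all LSK cells was 0 to 7 over the fits without 1 library, 7 being that without AML replicate 3. In MPP3 it was 3 with library size only, 4 with no filter, 1 with a replicate block and 0 to 4 without 1 library, and in MPP4 5 with no filter, 3 with a replicate block and 0 to 5 without 1 library, the highest again without AML replicate 3. Calls over all genes also moved, from 0.0486% in MPP3 to 0.816%, 0.917%, 0.457% and, without AML replicate 3, 0.691%, and from 0.0325% in MPP4 to 0.388%, 0.276% and 0.273%. HSC and MPP2 had 0 in every alternative run. The class-by-treatment test called 31 with no filter, 0 by limma-voom with a random library term, 17 in thinned cells, 12 without cluster 6 and 10 without cluster 3 (these 3 chosen after seeing the data), and 2 to 14 without 1 library. Of all genes it called 0.872%, and in the first 5 of these settings 2.34%, 0.00785%, 0.814%, 1.26% and 1.25%. Library size only moved the median of all genes from -0.03 to 0.12 in HSC and from -0.01 to 0.11 in MPP3, and that of members to 0.26 and 0.86. Replicate numbers shared by PBS and AML libraries mark no stated pairing, and deviations of same-numbered libraries correlated at -0.057 and -0.055, so the replicate block is given here only. It left 0 members called over all LSK cells, where 91 of all genes were called in place of 23.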
